A study of Homo sapiens with 18 samples.

Results

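The promoters of 10 genes for proteins of the cytosolic ribosome were examined for MYC binding by chromatin immunoprecipitation and sequencing (ChIP-seq). The genes were RPL3, RPL4, RPL5, RPL11, RPL23 and RPLP0 of the large subunit and RPS2, RPS3, RPS6 and RPSA of the small subunit. They were chosen by name, and a peak was assigned to a gene when it overlapped the 4 kb around its transcription start site (TSS, 2000 bp to each side, hg19) by at least 1 bp. The 10 windows held 14 of the 43222 regions obtained by merging the peaks of all lists. The cells were MCF10A, an immortalised, non-tumour breast epithelial line, transformed with ectopic MYC (plasmid pBABE-hygro-MYC) and mutant PI3K (pMN-IRES-GFP-PI3KH1047R). They also carried a hairpin induced by doxycycline at 2 µg/mL for 72 h. The hairpin was a scramble control (pLKO-tetON-puro-shSCR, called shSCR) or 1 of 2 hairpins against the histone H3 methyltransferase G9a (pLKO-tetON-puro-shG9a 1 and 4, called shG9a_1 and shG9a_4). Each of the 3 groups had 3 replicate MYC libraries made with the antibody N262. The series design calls them biological replicates. The level of G9a itself was not measured in these files, and MYC came in part from a plasmid, so the cells are a model of high MYC.

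Ribosomal proteins bind ribosomal RNA in the nucleolus and are needed in near equal amounts. Their genes are among the most highly transcribed in growing cells and are textbook targets of MYC, which binds DNA as a dimer with MAX at E-box sequences, the canonical one being CACGTG, and also occupies active promoters without one. The promoters are compact, and transcription typically starts at a C within a run of pyrimidines. That run, kept at the 5′ end of the mRNA, places translation of these messages under control of the PI3K and mTOR pathway. G9a adds methyl groups to lysine 9 of histone H3 and is best known for gene repression.

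The start regions are shown because MYC summits lay just downstream of them. RefSeq promoter sequences (GRCh38.p14) were found for 7 of the 10 genes. Each line runs 5′ to 3′ on the gene's strand from 70 bases before to 30 after the RefSeq start, and capitals mark the longest run of C or T that touches the 10 bases before to 20 after that start. For RPL11 the second of 2 listed starts is shown, and its run holds the start itself.
RPS3 (chr11:75399448-75399547, plus strand): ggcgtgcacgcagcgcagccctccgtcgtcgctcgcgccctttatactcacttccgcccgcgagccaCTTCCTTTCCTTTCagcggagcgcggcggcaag
RPS6 (chr9:19380207-19380306, minus strand): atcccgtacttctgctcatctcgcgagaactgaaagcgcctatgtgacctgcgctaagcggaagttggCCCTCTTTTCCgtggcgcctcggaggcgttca
RPSA (chr3:39406650-39406749, plus strand): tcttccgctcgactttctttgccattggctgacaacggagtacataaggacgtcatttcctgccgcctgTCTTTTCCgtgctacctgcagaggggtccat
RPLP0 (chr12:120201082-120201181, minus strand): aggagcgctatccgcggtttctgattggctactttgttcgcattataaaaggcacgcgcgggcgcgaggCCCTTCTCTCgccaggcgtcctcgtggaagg
RPL4 (chr15:66504826-66504925, minus strand): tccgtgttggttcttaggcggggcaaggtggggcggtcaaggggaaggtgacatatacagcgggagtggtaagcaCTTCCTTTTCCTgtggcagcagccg
RPL11 (chr1:23691736-23691835, plus strand): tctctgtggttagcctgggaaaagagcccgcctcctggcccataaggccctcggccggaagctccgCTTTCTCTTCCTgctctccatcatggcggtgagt
RPL3 (chr22:39319594-39319693, minus strand): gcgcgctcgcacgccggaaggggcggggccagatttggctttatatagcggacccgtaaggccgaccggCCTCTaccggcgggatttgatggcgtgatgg
The run was 14 bases long in RPS3, 12 in RPL4 and in the second RPL11 entry, 11 in RPS6, 10 in RPLP0, 8 in RPSA and 5 in RPL3. Taking the first RPL11 entry, whose run was 6 bases, the run reached 8 bases in 5 of 7 genes, against 18.1% of 35116 promoters in the table.

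Short motifs were searched on both strands in the RefSeq window from 250 bases before to 50 after the start. The canonical E-box CACGTG was in none of the 7 member windows and in 7.26% of all promoters. The variant CACGCG was found in RPLP0, 18 bases before the start, and in RPS6, 196 bases before it, and in 11.4% of all promoters. The ETS-type motif CCGGAAG was found in RPL3, RPL11 and RPS6 and in 10.3% of all promoters. The GC box GGGCGG was in 5 of 7 (RPL3, RPL4, RPS3, RPS6 and RPSA) and in 45% of all promoters. The TATA sequence TATAAA lay 27 bases before the start of RPLP0 and, on the other strand, 31 bases before that of RPL3 and 30 before that of RPS3, and 11.5% of all promoters held it. The motif AAGATGG was found in RPS3, with 5.84% among all promoters. These matches are letters in a window and not binding sites. The window ends short of most MYC summits, so the sequence under the summits was not analysed here.

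The shSCR lists held 20118 to 34738 peaks on chromosomes 1 to 22 and X, and the lists of shG9a_1 replicates 2 and 3 and of shG9a_4 held 11168 to 17454. The list of shG9a_1 replicate 1 stood apart with 113 peaks of 79 bp median width, and it was left out of the comparisons of height below. Depth is not listed. It was estimated as the lowest background shared by at least 1% of a library's peaks, divided by the width of its shortest peak. Relative to the shSCR mean, the depth recovered from the peak values was 0.925 to 1.04 for shSCR, 0.840 and 1.09 for shG9a_1 replicates 2 and 3, and 1.90, 1.06 and 2.64 for shG9a_4. For shG9a_1 replicate 1, the list with the fewest peaks, the estimate was 2.36 and is not reliable. Its shared background was the lowest of all (0.361). Its shortest peak was 51 bp, beside 130 to 157 bp in the other lists. Cells without MYC or without the antibody were not among the samples, so background is that of the peak caller.

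MYC was called at all 10 ribosomal protein genes in every library except shG9a_1 replicate 1. All 10 had a peak in all 3 shSCR libraries, and so did 32.9% of the merged regions of the series. All 10 also had one in at least 5 of the 6 shG9a libraries, compared with 36.9% of the 14209 regions called in all 3 shSCR libraries, and none was without a peak in shG9a (9.49% of those regions). The members were strong sites to begin with, and 6 of them (RPL4, RPL5, RPL23, RPLP0, RPS2 and RPSA) lay in the strongest 10% of those regions, of which 99.2% were called in at least 5 shG9a libraries. RPL11, RPS3 and RPS6 lay in the next 10%, of which 90.8% were so called, and RPL3 in the 10% after that, with 67.8%. For the 9 stronger members the count is thus close to that of sites of like strength. In shG9a_1 replicate 1 only RPL5 and RPSA were called. That library called 0.767% of the 14209 regions and 7.32% of the strongest 10%.

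MYC summits lay downstream of the TSS at every member. In the 8 libraries other than shG9a_1 replicate 1, the strongest summit in the window was 34 to 198 bp into the transcribed side in 80 of 80 cases, with a median of 126.5 bp. Of these 80, 77 lay more than 50 bp downstream. The strand of RPL5, RPL23 and RPS2 was taken from textbook knowledge and that of the 7 others from RefSeq. Median distances ran from 68 bp in RPLP0 through 93 bp in RPS2, 107.5 bp in RPL11, 109 bp in RPL4 and RPS3 and 132 bp in RPL23 to 147 bp in RPS6, 153.5 bp in RPSA, 156 bp in RPL5 and 170.5 bp in RPL3. The SD of the position over the 8 libraries was 14.8 bp in RPSA, 15.6 bp in RPL11, 16.0 bp in RPL5 and 17.4 bp in RPL3, and at most 39.5 bp (RPLP0). The shSCR and shG9a ranges of position overlapped in all 10 genes. Exons and introns of hg19 were not used here, so the summits are given by distance only.

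**Figure D1:**
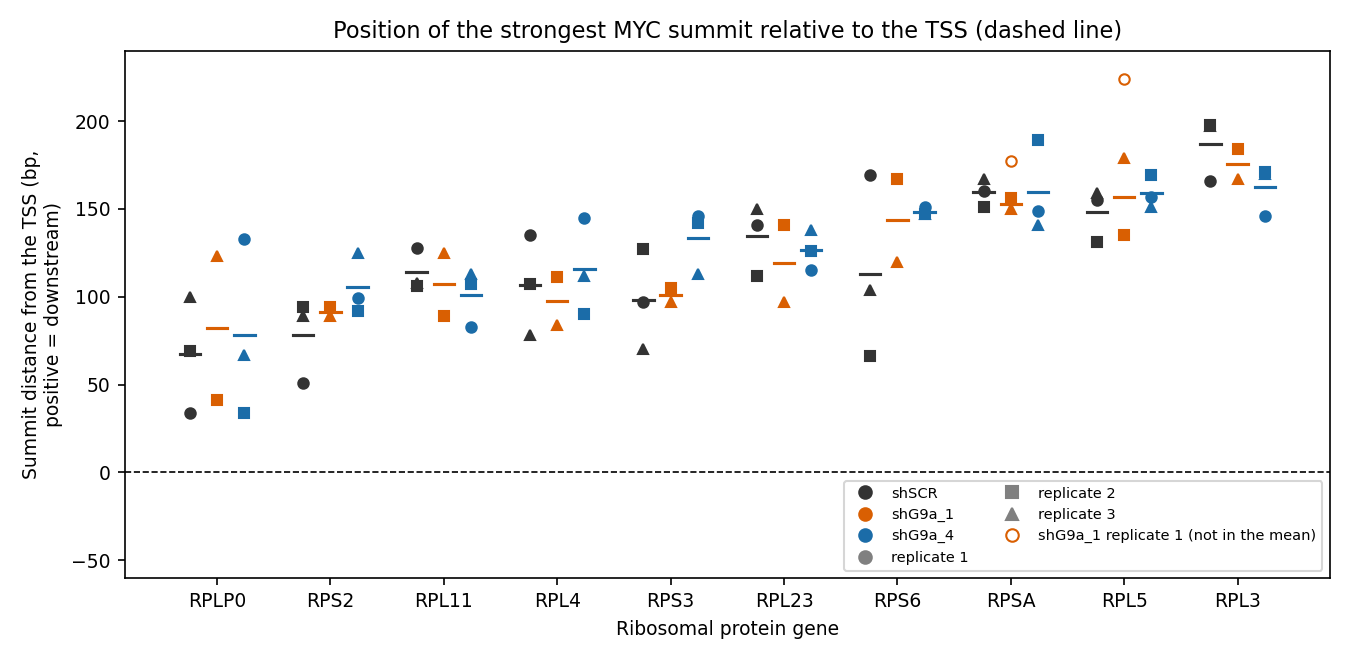
Distance of the strongest MYC summit from the TSS in bp (vertical axis, positive is downstream) for each gene, one point per library, with bars at the group mean without shG9a_1 replicate 1. All points of the other 8 libraries lie between 34 and 198 bp downstream.

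The place of each peak in its own list, by −log10 q-value, ordered the members. Ranks in lists of unlike length show no change between libraries and serve here as a description. RPSA, a small-subunit protein also known as the laminin receptor, was the strongest, with ranks 45, 41 and 58 in the 3 shSCR lists and a percentile of 99.8 ± 0.0892 (SD, n = 3). RPL5 followed with ranks 134, 317 and 139 (99.3 ± 0.232), and RPS2 with ranks 872, 487 and 313 (98.0 ± 0.841). These 3 did not overlap with each other in shSCR. RPLP0 (96.0 ± 2.60), RPL4 (95.6 ± 4.06), RPL23 (95.1 ± 0.924), RPS3 (92.6 ± 4.10), RPL11 (90.7 ± 3.44), RPS6 (90.3 ± 2.90) and RPL3 (86.8 ± 5.16) came next, and neighbours in that order overlapped. In the 5 shG9a lists other than shG9a_1 replicate 1 the members' percentiles ran from 59.2 (RPL3 in shG9a_1 replicate 2) to 99.9, and the median over the members was 95.6 to 98.2 in each list, beside 93.2 to 97.1 in the shSCR lists.

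**Figure D2:**
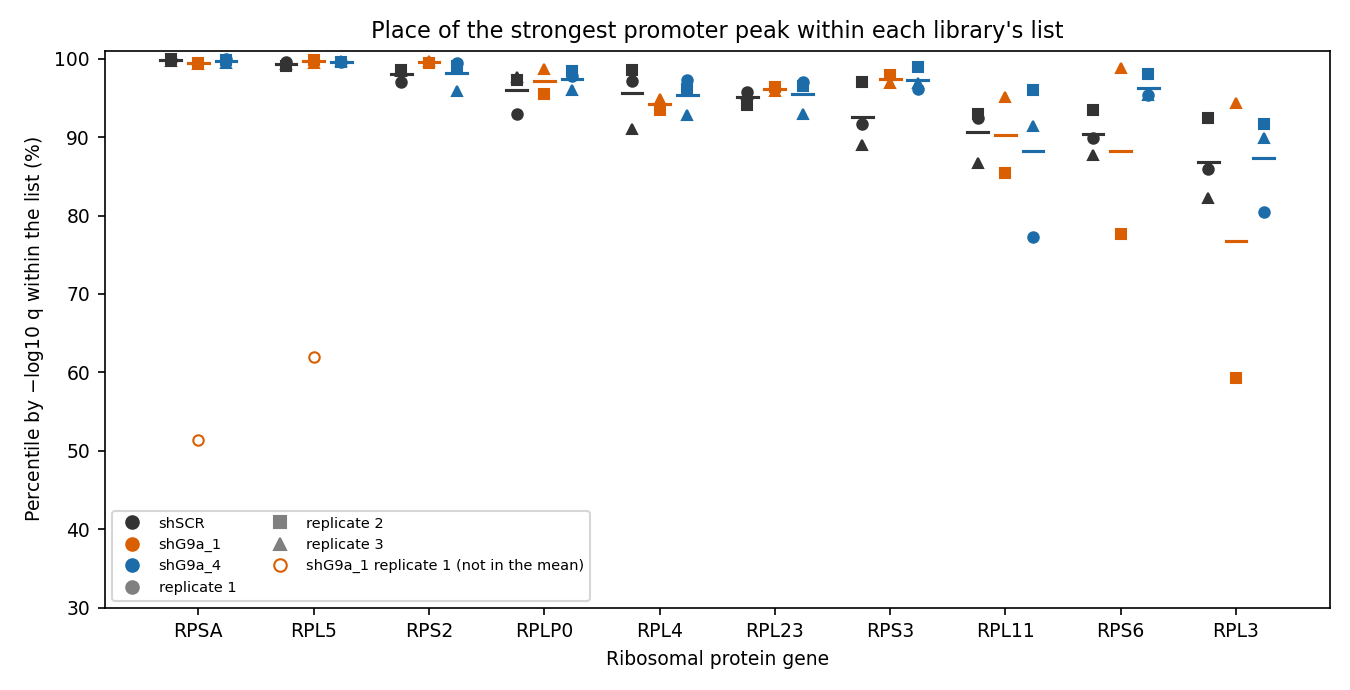
Percentile of the strongest peak of each gene within its library's list, ranked by −log10 q-value (vertical axis), one point per library, with bars at group means without shG9a_1 replicate 1. RPSA and RPL5 stay above 99 in the 8 other libraries, while RPL3, RPL11 and RPS6 spread down to 59.2, 77.3 and 77.6.

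Peak height was compared through the pileup, the number of sequenced fragments that overlap at the summit, divided by the lowest background shared by at least 1% of the peaks of that library. It is a ratio without unit, and it is a different quantity from the authors' fold, which uses the local background and adds 1 to both terms. Members are described by role.

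RPL3 and RPL4 are large-subunit proteins that bind ribosomal RNA early in assembly, RPL3 reaching towards the peptidyl transferase centre and RPL4 lining the exit tunnel. At RPL3 (TSS at chromosome 22, 39715670) the authors' fold was 11.8, 17.8 and 10.5 for shSCR, 6.78 and 16.1 for shG9a_1 replicates 2 and 3, and 9.87, 14.3 and 9.08 for shG9a_4. Its pileup over background was 42.4, 57.3 and 51.5 for shSCR, 32.4 and 58.0 for shG9a_1, and 21.4, 56.5 and 40.7 for shG9a_4. RPL3 had the lowest mean over the shSCR libraries among the members, and its highest shG9a value exceeded every shSCR value. At RPL4 (chromosome 15, 66797185) the fold was 22.2, 29.7 and 14.9 for shSCR, 13.5 and 16.4 for shG9a_1, and 17.5, 19.7 and 14.4 for shG9a_4. Its pileup over background was 75.9, 120.8 and 63.8 for shSCR, 56.7 and 62.2 for shG9a_1, and 45.2, 69.0 and 33.9 for shG9a_4. The RPL4 values of 4 shG9a libraries were below all shSCR values, and shG9a_4 replicate 2 overlapped with shSCR.

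RPL5 and RPL11 form a particle with 5S ribosomal RNA, and when free they restrain MDM2, the ligase that degrades p53. RPL23 has also been described as an MDM2 binder. At RPL5 (chromosome 1, 93297594) the fold was 35.4, 26.7 and 33.6 for shSCR, 38.8 and 28.2 for shG9a_1 replicates 2 and 3, and 23.6, 38.5 and 35.3 for shG9a_4. Its pileup over background was 127.2, 161.7 and 147.2 for shSCR, 153.8 and 124.4 for shG9a_1, and 77.9, 131.8 and 84.4 for shG9a_4. Of the RPL5 values in shG9a, 2 lay within the shSCR range (shG9a_1 replicate 2 and shG9a_4 replicate 2), and the lowest were those of shG9a_4 replicates 1 and 3. At RPL11 (chromosome 1, 24018294) the fold was 13.6, 15.2 and 12.7 for shSCR, 10.4 and 15.4 for shG9a_1, and 6.89, 19.1 and 13.3 for shG9a_4. Its pileup over background was 66.9, 75.7 and 54.0 for shSCR, 40.5 and 68.4 for shG9a_1, and 31.4, 69.0 and 32.0 for shG9a_4. The groups overlapped at RPL11, where shG9a_1 replicate 3 and shG9a_4 replicate 2 lay within the shSCR range. At RPL23 (chromosome 17, 37009989) the fold was 17.9, 14.7 and 20.5 for shSCR, 16.4 and 16.3 for shG9a_1, and 15.4, 20.0 and 12.6 for shG9a_4. The RPL23 pileup over background was 75.9, 88.0 and 76.0 for shSCR, 67.5 and 72.6 for shG9a_1, and 50.2, 73.2 and 38.8 for shG9a_4. For RPL23 the groups did not overlap, though the nearest values were 75.9 and 73.2.

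RPLP0 is the base of the stalk that recruits translation factors to the large subunit. At its promoter (chromosome 12, 120638910) the fold was 11.8, 24.03 and 23.002 for shSCR, 15.3 and 26.7 for shG9a_1 replicates 2 and 3, and 18.7, 27.2 and 17.6 for shG9a_4. Pileup over background was 82.6, 96.2 and 115.3 for shSCR, 64.8 and 82.9 for shG9a_1, and 47.7, 85.8 and 41.7 for shG9a_4. The lowest shSCR value was reached by 2 shG9a libraries.

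RPS2 and RPS3 sit at the mRNA entry of the small subunit, RPS6 is the protein phosphorylated by S6 kinase downstream of PI3K and mTOR, and RPSA binds late in small-subunit assembly. At RPS2 (chromosome 16, 2014827) the fold was 17.4, 26.4 and 27.8 for shSCR, 27.8 and 38.1 for shG9a_1 replicates 2 and 3, and 27.8, 26.9 and 11.3 for shG9a_4. Its pileup over background was 98.2, 133.0 and 120.2 for shSCR, 102.6 and 126.5 for shG9a_1, and 62.8, 121.3 and 59.2 for shG9a_4. Of the 5 shG9a libraries, 3 lay inside the shSCR range of RPS2. At RPS3 (chromosome 11, 75110562) the fold was 11.7, 23.3 and 12.3 for shSCR, 17.7 and 20.6 for shG9a_1, and 16.4, 28.6 and 16.4 for shG9a_4. The RPS3 pileup over background was 73.6, 94.2 and 68.7 for shSCR, 89.1 and 66.3 for shG9a_1, and 40.2, 104.6 and 50.4 for shG9a_4. The highest RPS3 value of all was in shG9a_4 replicate 2.

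RPS6 (chromosome 9, 19380235) had a fold of 13.5, 15.6 and 12.5 for shSCR, 7.51 and 26.3 for shG9a_1 replicates 2 and 3, and 13.5, 25.0 and 13.0 for shG9a_4. Its pileup over background was 51.3, 77.8 and 61.3 for shSCR, 48.6 and 89.1 for shG9a_1, and 44.0, 81.6 and 49.5 for shG9a_4. For RPS6, 2 shG9a libraries were above all shSCR values and 3 were below them. RPSA (chromosome 3, 39448204) had a fold of 42.7, 55.1 and 44.4 for shSCR, 27.6 and 21.3 for shG9a_1, and 42.9, 42.9 and 26.2 for shG9a_4. The RPSA pileup over background was 176.3, 223.1 and 171.7 for shSCR, 118.8 and 149.3 for shG9a_1, and 95.5, 163.2 and 81.5 for shG9a_4. All 5 shG9a values of RPSA were below all shSCR values.

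**Figure D3:**
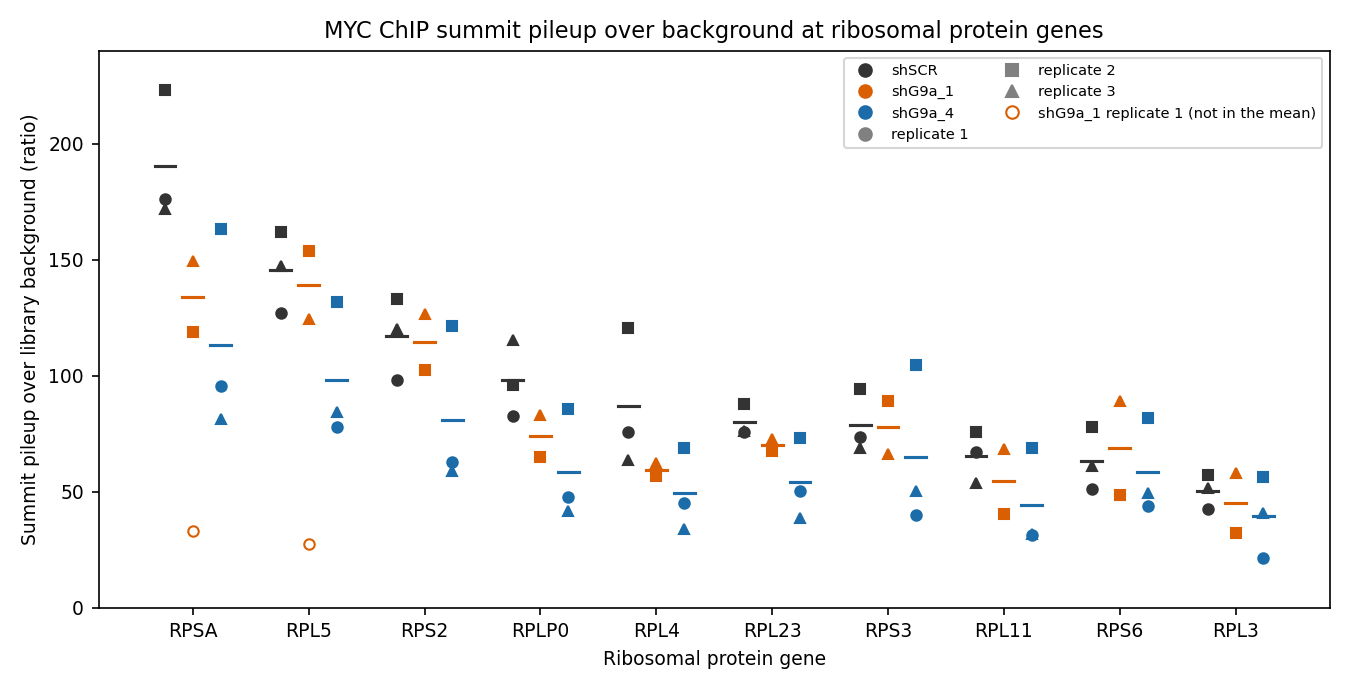
Summit pileup divided by library background (vertical axis, a ratio) for each gene, one point per library, with bars at the group mean without shG9a_1 replicate 1, whose 2 called genes are open circles. RPSA and RPL23 are the genes whose shSCR points lie above all points of the 5 other shG9a libraries.

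The comparison asked whether lowering G9a changed the height of MYC binding at these promoters. With both G9a hairpins together, none of the 10 members passed the test against shSCR, while 76.9% of the 5245 regions called in all 8 libraries were lower (limma, Benjamini-Hochberg adjusted p under 0.05 over all 5245, which are the regions strong enough to be called in every library). The median log2 difference was −0.37 over the members and −0.85 over all regions, and each of the 10 members lay above the median of all regions. All 10 were above the 75th percentile of all regions and 7 above the 90th (25% and 10% of regions by construction). The smallest difference was at RPS6, −0.04 ± 0.33 (SE; adjusted p = 0.903), higher than at 99.6% of regions. RPS3 followed with −0.21 (adjusted p = 0.533), RPS2 with −0.31 (0.343), RPL3 with −0.33 (0.323), RPL5 with −0.33 (0.316), RPL23 with −0.40 (0.230) and RPL11 with −0.48 (0.151), all limma values with an SE of 0.33. That SE was the same at all 10 members, because limma pooled the spread over regions in this fit. The largest differences were −0.61 at RPLP0 (adjusted p = 0.0749), −0.65 at RPSA (0.0565) and −0.66 at RPL4 (0.0556), and even that of RPL4 was exceeded in size by 78.8% of regions.

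These calls depend on the libraries and the filter. Without shG9a_4 replicate 2, 6 of the 10 members passed as lower (RPL4, RPL11, RPL23, RPLP0, RPS2 and RPSA), beside 5202 of 5346 regions. Without shSCR replicate 3, RPL4 alone did, beside 3203 of 5289 regions. When −log10 q of at least 5 was required in all 8 libraries, RPL4 (limma adjusted p = 0.0480) and RPSA (0.0486) passed with the same differences. There 2806 of 3501 regions were lower. The count of lower regions, 4031 with all 8 libraries, was 2453 without shSCR replicate 1, 432 without shSCR replicate 2, 2516 without shG9a_1 replicate 2 and 2540 without shG9a_1 replicate 3. With the authors' fold in place of pileup over background, 5 of the 10 members were below 0 and 5 above (RPL5, RPLP0, RPS2, RPS3 and RPS6), and none passed (limma). Only 2 of the 10 members (RPL23 and RPSA) had all 5 shG9a values below all shSCR values, against 56.4% of the 5245 regions.

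**Figure D4:**
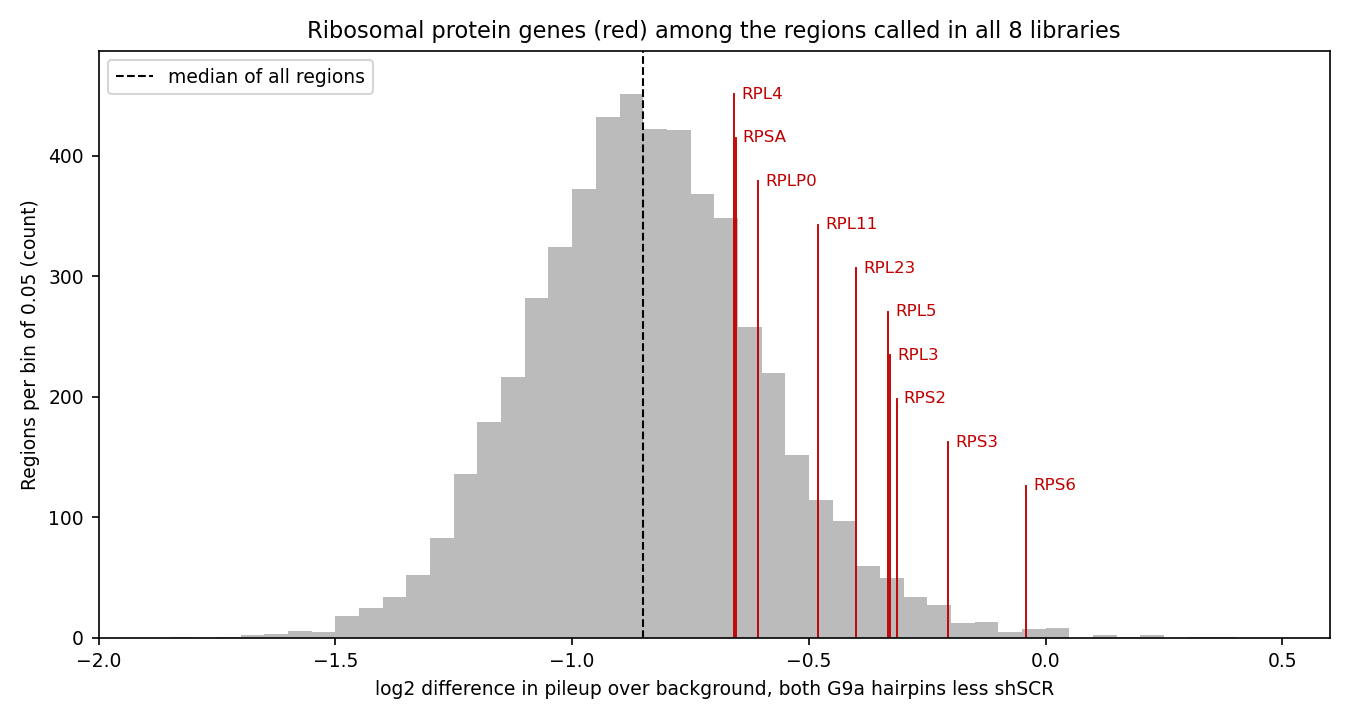
Histogram of the log2 difference in pileup over background, both G9a hairpins less shSCR (horizontal axis), for the 5245 regions called in all 8 libraries (count per bin on the vertical axis), with the 10 genes as red lines whose height carries no value. The members lie at −0.66 to −0.04, to the right of the median of all regions (dashed) at −0.85.

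Regions as strong as the members had differences close to the median of all regions. The regions called in all 3 shSCR libraries were split into 10 equal classes by their mean shSCR percentile. In the strongest class, 1410 regions were in the fit with a median log2 difference of −0.92, and 86.9% were lower (limma). In the next class, 1290 regions had a median of −0.91, and in the one below it 963 regions had −0.86. Compared with the regions of its own class, RPS6 was higher than 99.7%, RPS3 than 99.5%, RPS2 than 99.3%, RPL5 than 99.1%, RPL23 than 98.6%, RPL3 than 98.5%, RPL11 than 96.7%, RPLP0 than 92.6%, RPSA than 89.0% and RPL4 than 88.6%. These are places in a distribution and carry no test of the list.

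Each library's median region moved with its group and its depth, and the median of the members stood higher above it in shG9a. The median region of the fit had a pileup over background of 51.5 to 63.5 for shSCR, 35.1 and 35.2 for shG9a_1 replicates 2 and 3, and 22.6, 41.8 and 22.3 for shG9a_4. The median of the members was 1.42, 1.5 and 1.40 times that of the median region in the shSCR libraries. In shG9a_1 replicates 2 and 3 it was 1.88 and 2.21 times, and in shG9a_4 it was 2.06, 2.00 and 2.04 times, so the 2 groups did not overlap in this ratio. Averaged over libraries, the ratio for shSCR was 1.44 ± 0.0519 (SD, n = 3), and for shG9a 2.04 ± 0.116 (SD, n = 5). The lowest member alone stood at 0.792 to 1 times the median region in shSCR and at 0.923 to 1.65 times in shG9a. There the groups overlapped. The ratio of medians rests on the same values as the log2 differences above and is no further result. Other sets of regions were not compared in this way.

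Centring each library on its median region adds the same amount to the difference of both hairpins from shSCR at every region. The median over all regions was then −0.01. All 10 members were above 0, where the uncentred differences were all below 0, and none passed the test. Their sign follows from their place above the median of all regions and is no further result. The relative log2 difference was 0.80 ± 0.21 (SE) at RPS6 (adjusted p = 0.112), 0.64 ± 0.19 at RPS3 (0.243), 0.53 ± 0.19 at RPS2 (0.341), 0.52 ± 0.22 at RPL3 (0.471) and 0.51 ± 0.19 at RPL5 (0.370), in the limma fit over 5245 regions. It was 0.44 at RPL23, 0.36 at RPL11, 0.24 at RPLP0, 0.19 at RPSA and 0.19 at RPL4, with adjusted p of 0.450 to 0.831. In that fit 4 of 5245 regions were higher (0.0763%) and 1 was lower (0.0191%), and 490 regions had an unadjusted p under 0.05. With −log10 q of at least 5 required in all 8 libraries, RPS6 passed as higher (0.84, limma adjusted p = 0.0292). Among 3501 regions, 20 were higher there. For RPS6 this relative difference ranged from 0.66 to 1.03 over 13 alternatives.

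The hairpins were also compared with shSCR one at a time. They share the 3 control libraries, so their values stand side by side and are not independent. With shG9a_1 none of the members passed (0.629% of regions were lower; limma; 2866 regions without shG9a_4 replicate 2 in place of 33) and the median log2 difference was −0.20 over the members and −0.67 over all regions. The values ran from −0.51 at RPSA to 0.07 at RPS6. With shG9a_4, RPL4 (−0.82, adjusted p = 0.0298), RPLP0 (−0.81, 0.0322) and RPSA (−0.80, 0.0329) fell, against 86.1% of regions called lower (limma), and the medians were −0.61 over the members and −1.02 over all regions. Those 3 calls did not hold without shSCR replicate 2, shG9a_4 replicate 1 or shG9a_4 replicate 3. Lower regions there numbered 2246 of 5246, 2493 of 5961 and 2324 of 5523. Without shG9a_4 replicate 2 the member count rose to 9, beside 5303 of 5346 regions. It was 1 without shSCR replicate 1 (3630 of 5261 regions) or shSCR replicate 3 (4154 of 5289). The member count was 0 with the authors' fold (605 of 5245 regions) or after centring on the median region (1 region lower and 5 higher).

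Between the hairpins, no member and no region passed (limma, shG9a_1 less shG9a_4), and 267 regions had an unadjusted p under 0.05. The member differences were 0.23 to 0.57, beside a median of 0.35 for all regions. After centring on the median region the members' differences between hairpins were −0.12 to 0.22. Without shG9a_4 replicate 2, 3 members and 1848 regions were higher in shG9a_1.

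**Figure D5:**
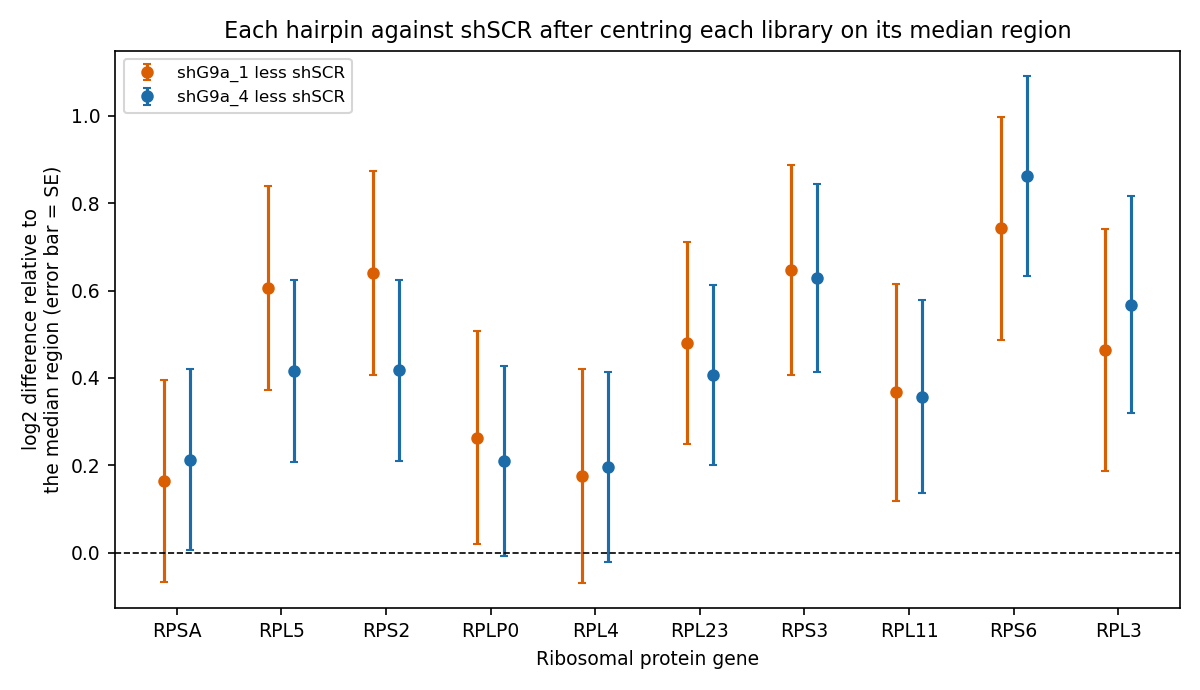
Log2 difference of each hairpin from shSCR after centring each library on its median region (vertical axis; error bars are SE of the limma fit), by gene. The points lie between 0.16 and 0.86 for both hairpins, and both hairpins use the same 3 shSCR libraries.

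Depth differed between libraries and moved with these values. At all 10 members the lowest of the 8 values of pileup over background was in shG9a_4 replicate 1 or 3, the 2 deepest of these 8 libraries, and at all 10 every shSCR value was above both. The median region had the same order, with 22.6 and 22.3 there and 51.5 to 63.5 for shSCR. At least 56.4% of the 5245 regions also had every shSCR value above both, since all 5 of their shG9a values were below all shSCR values. So this order is not particular to the members, and its exact share over all regions was not counted. The part of depth in the result was not tested. Among the 6 libraries with a depth within 1.2 times the shSCR mean (3 shSCR, shG9a_1 replicates 2 and 3, shG9a_4 replicate 2), no member passed and the member median was −0.10, beside −0.54 over 6457 regions, of which 32.1% were lower (limma). In these libraries RPS2 had 117.1 ± 17.6 in shSCR and 116.8 ± 12.6 in shG9a (SD, n = 3 each). RPS6 had 63.5 ± 13.4 and 73.1 ± 21.6, RPS3 had 78.8 ± 13.5 and 86.7 ± 19.2, and RPL5 had 145.3 ± 17.3 and 136.7 ± 15.3. RPSA had 190.4 ± 28.5 in shSCR and 143.7 ± 22.7 in shG9a. Only RPSA and RPL23 were without overlap here. For both genes that was fixed in advance, since the 6 libraries are among the 8 in which they did not overlap. How many of all regions had no overlap in the 6 libraries was not counted. The pileups behind the values of pileup over background were 12 to 109 fragments, so counting error is part of the spread.

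The shortest list gave a further view of the 2 strongest members. In shG9a_1 replicate 1 the RPL5 peak ranked 44 and the RPSA peak 53 of 113, with folds of 7.67 and 7.09 and pileups of 10 and 12 fragments. Their pileup over background, 27.7 and 33.2, was below that of the same genes in the 8 other libraries, whose lowest values were 77.9 and 81.5. The other 8 members had no listed peak there, which means that none passed the caller's limit in that library.

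At the median, the members' peaks were wider than all peaks of their lists, and their neighbours differed. In the shSCR lists the strongest peak was on average 458 bp (RPS3) to 867 bp (RPLP0) wide, and the median over members was 570 to 628 bp beside 240 to 275 bp for all peaks of those lists. In the 5 other shG9a lists it was 465.5 to 540 bp beside 223 to 249 bp. Merged over the 9 lists the member regions were 522 to 1171 bp wide, against a median of 532 bp for shSCR-reproducible regions and 861 bp for the strongest 10% of them. Only RPLP0, RPS2 and RPS6 were wider than that of the strongest 10%. Further peaks in the windows numbered 14, at 5 genes, with folds of 3.87 to 8.01. RPL3 had one at −629 to −431 bp from its TSS in 2 shSCR and 2 shG9a_4 libraries. RPS2 had 4 upstream peaks at −511 to −333 bp in 3 libraries and 1 downstream at 1338 bp. In the RefSeq table (GRCh38.p14) the window of RPS2 also holds SNHG9 and that of RPL4 holds ZWILCH, a spindle checkpoint gene, so a peak there cannot be given to one gene alone. Small nucleolar RNAs, which guide modification of ribosomal RNA, lie within 7 of the 10 genes, 18 in all. All but RPL11 and RPS6 had another gene in the window.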

How the data were processed

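Peak lists of 9 MYC ChIP-seq libraries were analysed, and the other 9 of the 18 samples (input DNA) were not used here. Tools named without a role in the submitters' processing notes are MACS2 (2.1.0), Picard (2.7.1), SAMtools (1.3) and STAR (2.5.2a), with GRCh37 and hg19 as builds. Settings of the caller and filters on reads: not given in the sources used here. Processed pseudogenes share exon sequence with these genes, and how such reads were treated is not known. Each library has its own list, as the deposited peak names show. The deposited score is a whole number, 10 times −log10 q with decimals dropped in nearly every entry. Fold is the authors' ratio of summit pileup to local background. For each summit the authors also list the −log10 p-value and, adjusted within the library, the −log10 q-value.

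Peaks on chromosomes 1 to 22 and X were kept (192 of 151062 left out) and merged where they overlapped by 1 bp. A peak's strongest entry by q in a window stood for the gene. Fold and p fix a whole-number pileup, which was found within 0.001 on the −log10 p scale for 100% of peaks. Pileup over library background was compared on the log2 scale with limma 3.58.1 (R 4.3.3), in 1 fit of 8 libraries with 3 groups, over regions called in all 8. On 5245 simulated regions with 200 lowered by 1 on the log2 scale, the comparison of both hairpins recovered 66% of the changed ones, and 95.5% when lowered by 2. Simulated noise took each region's shSCR spread, without depth differences or shifts common to a library, so these shares may not describe the data. No count of reads or input level was available to weigh each value, so pileups with few fragments have more error. The p-values measure the spread between these libraries. In the uncentred fit this spread was pooled over regions, so a gene's own spread did not enter its p-value. Alternatives were stricter peaks, other windows, equal peak numbers, missing values dropped, the authors' fold in place of pileup, other scaling, a replicate block, libraries of like depth, and each library left out. The named genes were the 10 members. The list of 69 other ribosomal protein genes was not counted, since their hg19 positions were not used here. Members, lists and tests were chosen with earlier results of these data known.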

Additional observations from a re-analysis of the deposited data

How the results depend on the processing

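The finding that all 10 members were called in all 3 shSCR libraries and in at least 5 of 6 shG9a libraries held under every alternative threshold, window, overlap rule and list length run. The count called in all 9 libraries, 2, was 1 at −log10 q of at least 5. Without shG9a_1 replicate 1 it was 10 in all 8 other lists, both at full length and with equal peak numbers. It stayed at 2 when any other library was left out. With both hairpins the passing regions numbered 1509 with the authors' fold, 2074 at like depth, 5 after centring on the library median and 432 to 5202 leaving out 1 library. The passing members, 0 of 10, became 2 at −log10 q of at least 5 (beside 2806 of 3501 regions) and 0 to 6 leaving out 1 library. With shG9a_1, 33 regions became 17 at −log10 q of at least 5, 2 with regions called in at least 6 libraries, 584 with fold, 2907 at like depth, 0 after centring and 0 to 2866 leaving out 1 library. With shG9a_4, 4516 regions became 605 with fold, 59 at like depth, 6 after centring and 2246 to 5303 leaving out 1 library, and the 3 members became 0 with fold, 0 at like depth, 0 after centring and 0 to 9 leaving out 1 library. Between hairpins, leaving out 1 library gave 0 to 1848 regions and 0 to 3 members. Relative to the library median, the 5 regions became 21 at −log10 q of at least 5 (1 member, RPS6), 8 with at least 6 libraries, 0 with fold, 0 at like depth and 1 to 19 leaving out 1 library. Leaving out a shG9a_1 library leaves 1, and at like depth shG9a_4 is 1 library (replicate 2), each assumed to vary like the other groups. The causes were not tested.

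Centring adds the same amount to every region. It turned all 10 differences of both hairpins positive: RPL3 0.52, RPL4 0.19, RPL5 0.51, RPL11 0.36, RPL23 0.44, RPLP0 0.24, RPS2 0.53, RPS3 0.64, RPS6 0.80 and RPSA 0.19. With the authors' fold, RPL5 was 0.033, RPLP0 0.14, RPS2 0.14, RPS3 0.38 and RPS6 0.14, and the relative difference of RPSA was −0.057. At like depth RPS2 was 0.016, RPS3 0.20 and RPS6 0.23. Leaving out 1 library moved RPS6 from −0.26 to 0.18, with 0.12 without shSCR replicate 2, 0.18 without shG9a_1 replicate 2, 0.05 without shG9a_4 replicate 1 and 0.0053 without shG9a_4 replicate 3.

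The replicate numbers are not said to pair the samples. Deviations of same-numbered libraries correlated at −0.0226 to 0.154 over 7 pairs, and those of other numbers at −0.144 to 0.0809 over 14 pairs. Of the 8 libraries, 6 correlated best with their own number. The deviations of the 2 shG9a_1 libraries are mirror images of each other, so these correlations and that count are partly fixed in advance. With a replicate block, 4640 regions and 3 members (RPL4, RPLP0 and RPSA) passed for both hairpins, 1541 regions for shG9a_1, 4811 regions and 4 members for shG9a_4, and 3 regions relative to the median. The pileups of the members in the 8 libraries were 12 to 109 fragments.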
